A study of Mus musculus with 32 samples.

Results

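The genes described here are 7 genes of the T lymphocyte lineage that could be measured (Cd3d, Cd3e, Cd3g, Lat, Thy1, Bcl11b, Ccr9) and 2 genes active in the EG7 tumour line (Rhox5, Trap1a), followed through tumour-associated macrophages. They are 9 of 10 named genes, among 17097 genes on the HT_MG-430_PM chip and 22180 on the Mouse Gene 2.0 ST chip. The other named gene, the T cell kinase Lck, had no probe set assigned to it alone on either chip and was not analysed here. Each gene was read from its probe set of highest mean. The genes were chosen by their signals in earlier results of these data, above all the gap between neuroblastoma and EG7 tumours, so that gap is given as a description with no test.

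RNA of 32 mouse samples was hybridised, 1 array each, in 12 groups. CD11b+ cells were enriched with magnetic beads from neuroblastomas that arise in Th-MYCN transgenic mice (3 arrays) and from EG7 tumours in WT mice (3 arrays). The same enrichment was made from EG7 tumours in WT and in Myd88-/- hosts (5 arrays each). Macrophages of EG7 tumours were also sorted by flow cytometry into population A (CD11b+, Ly6G-, Ly6C+, MHCII-) and population C (CD11b+, Ly6C-, MHCII+). The sorts came from 4 kinds of host, with 2 arrays for each host and population: WT, TNFR1-/- (called TNFR1KO), Myd88flox/flox with Tie2-Cre (Myd88cKO), and TNFR1-/- with Myd88flox/flox and Tie2-Cre (doubleKO). The alleles are those of the host only, and transplanted EG7 cells carried none of them. Tie2-Cre is active in blood cells of many kinds and in endothelium, so host T cells lie within its reach as well as macrophages. The labels do not state whether the arrays of 1 group stem from different mice, and the spread behind each p-value may therefore be technical.

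CD3 chains form the signalling part of the T cell receptor complex on every mature T lymphocyte, and Lat is the membrane adaptor that the activated receptor phosphorylates through Zap70. Thy1 is a surface glycoprotein of mouse T cells and thymocytes that fibroblasts and neurons also carry, Bcl11b is a transcription factor that fixes T cell fate, and Ccr9 guides thymocytes and gut T cells. EG7 is an ovalbumin-expressing derivative of the EL4 thymoma line and shares these T-lineage genes with any T cell. Rhox5 is an X-linked homeobox gene of reproductive tissue, and Trap1a, also X-linked, encodes the tumour antigen P1A of the cancer-germline class; normal T lymphocytes are not known for either. The sort gates ask for CD11b, which macrophages carry and T cells mostly lack.

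Upstream sequences are printed for the 2 CD3 chains that differed most between sorted groups and for the 2 EG7-line genes, because these pairs moved together in some arrays and apart in others. Each is the 250 bases before the gene start, from RefSeq on GRCm38.p6, read 5′ to 3′ on the gene's strand. Capitals mark the ETS core GGAAG on either strand. The positions are chr9:45009612-45009861 (minus strand) for Cd3e, chr9:44980432-44980681 (minus strand) for Cd3g, chrX:37754358-37754607 (plus strand) for Rhox5 and chrX:139333433-139333682 (plus strand) for Trap1a.
Cd3e: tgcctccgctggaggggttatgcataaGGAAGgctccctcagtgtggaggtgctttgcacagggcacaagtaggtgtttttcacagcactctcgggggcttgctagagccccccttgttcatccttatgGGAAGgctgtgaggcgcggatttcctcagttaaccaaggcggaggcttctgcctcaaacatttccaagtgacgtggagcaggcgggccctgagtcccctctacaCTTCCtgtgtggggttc
Cd3g: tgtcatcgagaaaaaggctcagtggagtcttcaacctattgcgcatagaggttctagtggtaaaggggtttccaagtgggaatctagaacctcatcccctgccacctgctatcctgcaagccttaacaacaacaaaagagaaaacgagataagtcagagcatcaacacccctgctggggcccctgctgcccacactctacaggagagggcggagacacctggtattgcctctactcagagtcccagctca
Rhox5: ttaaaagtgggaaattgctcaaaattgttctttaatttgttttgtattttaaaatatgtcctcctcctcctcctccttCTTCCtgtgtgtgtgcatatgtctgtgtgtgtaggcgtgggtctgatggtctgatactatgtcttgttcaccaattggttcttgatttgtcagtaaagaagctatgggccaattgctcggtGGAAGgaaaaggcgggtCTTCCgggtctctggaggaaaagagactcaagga
Trap1a: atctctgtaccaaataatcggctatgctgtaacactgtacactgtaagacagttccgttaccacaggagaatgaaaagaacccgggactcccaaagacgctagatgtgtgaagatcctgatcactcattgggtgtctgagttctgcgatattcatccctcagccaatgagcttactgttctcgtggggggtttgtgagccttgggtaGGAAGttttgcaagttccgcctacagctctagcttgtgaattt
Cd3e and Rhox5 held 3 matches each, Trap1a 1 and Cd3g 0. Of the 9 named genes with an upstream entry 8 held at least 1 match, and so did 64.1% of the 32851 upstream sequences of the same length. Cd3d and Cd3g start 1355 bases apart on opposite strands, and Cd3e starts 27825 bases from Cd3d, so the 3 chains share a locus.

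In bead-enriched cells of the tumour models, each of the 9 genes was higher in all 3 EG7 arrays than in all 3 neuroblastoma arrays. Values are log2 signals after robust multi-array averaging (RMA), and a difference of 1 is a doubling. Cd3d had 10.61, 10.49 and 10.21 in EG7 tumours against 3.53, 6.15 and 4.86 in neuroblastoma. Cd3g had 9.47, 9.04 and 9.22 against 3.01, 5.33 and 3.62. Cd3e lay closer, at 7.66, 7.44 and 6.97 against 5.62, 6.63 and 5.92. The groups did not overlap for any CD3 chain, and within neuroblastoma replicate 2 was the highest for all 3 chains.

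Lat had 9.76, 10.15 and 9.76 in EG7 tumours against 4.10, 5.33 and 4.65 in neuroblastoma. Thy1 differed least after Cd3e, with 10.62, 10.28 and 10.19 against 8.27, 8.13 and 8.60, and its neuroblastoma values stayed between the 85.8th and 88.8th percentile of all probe sets of the array. Bcl11b had 7.87, 7.61 and 7.66 against 3.68, 4.44 and 4.99. All 4 Bcl11b probe sets had the higher mean in EG7 tumours, the least bright rising from 3.27 to 3.96. Ccr9 had 10.37, 9.24 and 9.66 against 3.74, 5.98 and 4.68, and its 3 other probe sets also had the higher mean in EG7 tumours.

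Rhox5 reached 10.76, 10.75 and 10.55 in EG7 tumours, between the 96.6th and 97.1st percentile of the array, and 3.12, 4.09 and 4.55 in neuroblastoma. Trap1a showed the tightest groups, with 9.42, 9.37 and 9.45 against 2.90, 2.94 and 2.90. Its neuroblastoma values lay at the 14th to 15.2nd percentile of the array, the low end of the chip. All 9 genes passed the threshold downwards in neuroblastoma, where 5.22% of 12577 genes did; this contrast chose the genes, so nothing is read from that count.

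The neuroblastomas are not EG7 tumours, so by design Trap1a could not be expected to follow the T-lineage genes there. Among the neuroblastoma arrays, replicate 2 had the highest CD3 values. In that array Cd3d was 6.15, Cd3g 5.33, Lat 5.33 and Ccr9 5.98, each the highest of the 3, while Thy1 and Bcl11b were highest in replicate 3. Trap1a was 2.94 in replicate 2, against 2.90 in both others, and Rhox5, at 4.09, was the middle value. Some other lymphocyte genes, picked after their values were seen, were highest there too. The granzymes Gzma and Gzmb had 10.60 and 10.39 against at most 5.61 and 6.16 in the remaining arrays. Cd2 had 7.12 against at most 5.02, and Ctla4, an inhibitory receptor of T cells, had 6.78 against at most 4.50. The summed signal of 9 natural killer cell markers was 9.33 on the log2 scale in this array against 6.45 and 6.79. The sums of B lymphocyte markers (11.69) and of macrophage and monocyte genes (16.12) were the highest there too, against at most 11.16 and 15.89. That of T-lineage transcription factors was the lowest, at 10.85 against 10.95 and 11.28. So 5 of the 7 T-lineage genes were highest in replicate 2, while Trap1a lay at the low end of the chip in all 3 neuroblastoma arrays. The part of other lymphocytes in this was not tested.

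In the Myd88 experiment all 9 genes were again well above the low end of the chip, and none passed the test of a difference between hosts. These arrays have medians of 2.95 to 3.03, against 3.84 to 3.93 in the tumour models, so only percentiles are set across them. Trap1a lay at the 78.5th to 86.5th percentile in WT hosts here and at the 92.7th to 93rd percentile in the tumour model arrays of EG7. Rhox5 lay at the 91.7th to 95.4th percentile, Cd3d at the 87.3rd to 92.6th, and Bcl11b at the 62.3rd to 68.3rd.

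Cd3d had 7.28, 7.70, 7.38, 8.27 and 8.00 in WT hosts and 7.68, 7.88, 7.93, 7.36 and 7.44 in Myd88-/- hosts. Trap1a had 6.01, 6.61, 6.34, 7.12 and 7.18 in WT hosts and 6.06, 6.75, 6.89, 5.72 and 5.88 in Myd88-/- hosts. For both genes the 2 sets of arrays overlapped along most of their range. Rhox5 had 8.10, 8.60, 8.47, 9.05 and 8.88 against 8.20, 8.60, 8.58, 8.25 and 8.32, and the Myd88-/- arrays all fell inside the WT range.

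By limma, 0 of 9 genes passed an adjusted p of 0.05 (Benjamini-Hochberg over 11915 genes, of which 1.44% passed), and 0 of the 9 had an unadjusted p under 0.05. The largest estimates were Ccr9 at -0.42 ± 0.25 (SE, 95% interval -0.96 to 0.12, adjusted p = 0.563) and Trap1a at -0.39 ± 0.27 (interval -0.97 to 0.18, adjusted p = 0.628). Cd3g, at 0.01 ± 0.17, had an interval of -0.35 to 0.37. These intervals bound the change but do not show that the hosts are alike. The median of the 9 genes was -0.23 against 0.01 over all genes tested. Myd88 itself checked the labels, with 7.47 to 7.83 in Myd88-/- hosts and 8.11 to 8.57 in WT hosts.

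Within this experiment Trap1a moved with Rhox5 and with most of the T-lineage genes from array to array, as it did with many genes outside this set. Over the 10 arrays, Trap1a correlated with Ccr9 at r = 0.949 (permutation p = 0.0001 from 100000 resamples, adjusted over 8 pairs 0.00064) and rho = 0.915 (permutation p = 0.00036, adjusted 0.00144). With Lat it had r = 0.947 (permutation p = 0.00016, adjusted 0.00064) and rho = 0.924 (permutation p = 0.0003, adjusted 0.00144). With Rhox5 it had r = 0.913 (permutation p = 0.00032, adjusted 0.000853) and rho = 0.851 (permutation p = 0.0029, adjusted 0.00522). With Cd3d it had r = 0.889 (permutation p = 0.00142, adjusted 0.00284) and rho = 0.903 (permutation p = 0.00106, adjusted 0.00283).

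The other 4 pairs were weaker. Bcl11b had r = 0.794 and Cd3g r = 0.764 with Trap1a, with adjusted permutation p of 0.00989 and 0.0161. Cd3e had r = 0.636 (adjusted permutation p = 0.0569) and Thy1 r = 0.610 (adjusted permutation p = 0.0647), and neither passed by r. By ranks Cd3e passed, at rho = 0.709 (adjusted permutation p = 0.0313), and Thy1 did not, at rho = 0.515 (adjusted permutation p = 0.135). Ranks by r with Trap1a among the genes tested were 219 for Bcl11b, 305 for Cd3g, 867 for Cd3e and 997 for Thy1. They were 5 for Ccr9, 6 for Lat, 30 for Rhox5 and 53 for Cd3d. After each host's mean was subtracted, r ranged from 0.603 for Thy1 to 0.939 for Lat and Ccr9. Leaving out the 2 arrays farthest from the median of Trap1a gave r of 0.965 for Lat, 0.921 for Ccr9, 0.905 for Rhox5 and 0.875 for Cd3d. It gave 0.772 for Thy1, 0.762 for Cd3g, 0.720 for Bcl11b and 0.559 for Cd3e. The 8 pairs were computed after the levels had been seen, and all points share an array scale and a bead preparation. In bulk samples, fewer cells of a type and less RNA per cell cannot be told apart.

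Outside the named genes, those with the pattern most like Trap1a over these 10 arrays were Prickle1 (r = 0.958), Snhg6 (r = 0.956), Cd28 (r = 0.956), Zap70 (r = 0.956) and Gata3 (r = 0.948). Cd28 is the costimulatory receptor of T cells, Zap70 the kinase bound to the CD3 complex, and Gata3 a T-lineage transcription factor. The genes most like Cd3e were Itfg2, Zfp507, Rnf139, Atp6ap2 and Myo18a, with r from 0.903 to 0.944, and none of the named genes stood above them; Cd3d, the nearest, had r = 0.774.

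Among the sorted groups, population A of doubleKO hosts had the highest Cd3e, Cd3g, Lat and Thy1 signals, and population A of TNFR1KO hosts the lowest. Over the 16 sorted arrays, medians were 5.31 to 5.50, and an array's mean correlation with its own group over all probe sets was 0.931 to 0.987. Myd88 had 7.49 to 8.76 in the 8 arrays of hosts with its conditional deletion and at least 9.22 in the other 8. The probe set for Tnfrsf1a, the gene of TNFR1, parted the groups less well. In A it had 7.51 to 7.59 in TNFR1KO hosts and 7.69 to 8.2 in doubleKO hosts, against 7.95 to 8.30 in WT and Myd88cKO hosts, so 1 doubleKO array overlapped. In C it had 7.56 to 7.87 in TNFR1KO and 7.55 to 7.70 in doubleKO hosts, against 7.81 to 8.55 in WT and 8.04 to 8.43 in Myd88cKO hosts, so TNFR1KO overlapped WT.

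Cd3g had 8.39 and 8.49 in population A of doubleKO hosts. In the other A arrays it had 6.44 and 6.93 in WT, 5.54 and 5.61 in TNFR1KO, and 6.46 and 7.02 in Myd88cKO. In population C it had 6.41 and 6.47 in WT, 5.90 and 6.07 in TNFR1KO, 6.02 and 5.83 in Myd88cKO, and 6.42 and 7.09 in doubleKO. The lower A array of doubleKO hosts was thus above every other sorted array, and the A arrays of TNFR1KO hosts were the lowest.

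Cd3e repeated this order, with 8.55 and 8.64 in A of doubleKO hosts, 7.32 and 7.16 in WT, 6.98 and 7.46 in Myd88cKO and 6.21 and 5.95 in TNFR1KO. In population C it ran from 6.29 in Myd88cKO to 7.31 in doubleKO. Cd3d, the remaining chain, spanned only 5.33 to 6.33 over all 16 arrays, at the 46.9th to 70.8th percentile of the array. The response of its probe set on this chip to T cell RNA was not tested. Its A arrays of doubleKO hosts (6.0 and 6.33) overlapped those of WT (6.20 and 5.44) and of C in doubleKO hosts (5.76 and 6.24).

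Lat had 8.55 and 8.78 in A of doubleKO hosts, 7.52 and 7.44 in WT, 7.22 and 7.90 in Myd88cKO, and 6.88 and 6.72 in TNFR1KO, with 7.07 to 7.91 in population C. Thy1 had 7.99 and 7.97 in A of doubleKO hosts, 7.30 and 6.61 in WT, 6.52 and 7.0 in Myd88cKO, and 5.68 and 5.99 in TNFR1KO, with 6.05 to 6.76 in population C. For both genes, the doubleKO arrays of A were the highest of all and the TNFR1KO arrays of A the lowest. Bcl11b kept to 6.89 to 7.54 over the 16 arrays, and Ccr9 to 5.30 to 6.41, at the 49.4th to 72.2nd percentile of the array. The doubleKO arrays of A had the 2 highest Bcl11b values (7.54 and 7.45), while for Ccr9 (6.19 and 6.41) a Myd88cKO array of A at 6.33 lay between them.

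Of the EG7-line genes, Rhox5 lay at the 48.4th to 70.1st percentile of the sorted arrays and Trap1a at the 16.4th to 40.4th. Rhox5 had 6.29 and 6.20 in A of doubleKO hosts, above the other 14 arrays, which ran from 5.31 in C of TNFR1KO hosts to 5.92 in C of WT hosts. Trap1a had 4.83 and 4.44 in A of doubleKO hosts, but the highest of all 16 arrays was an A array of a WT host at 5.09, whose partner had 4.18. The remaining 12 Trap1a values lay between 3.88 and 4.27. Trap1a did not pass the low-value filter, which asks for a value above the 40th percentile of the array in at least 2 arrays, so 8 of the 9 genes were tested in sorted cells. No array of EG7 cells or of purified T cells on this chip was analysed here, so the response of its Rhox5 and Trap1a probe sets to EG7 RNA is not known, and levels on the 2 chips cannot be compared.

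**Figure D1:**
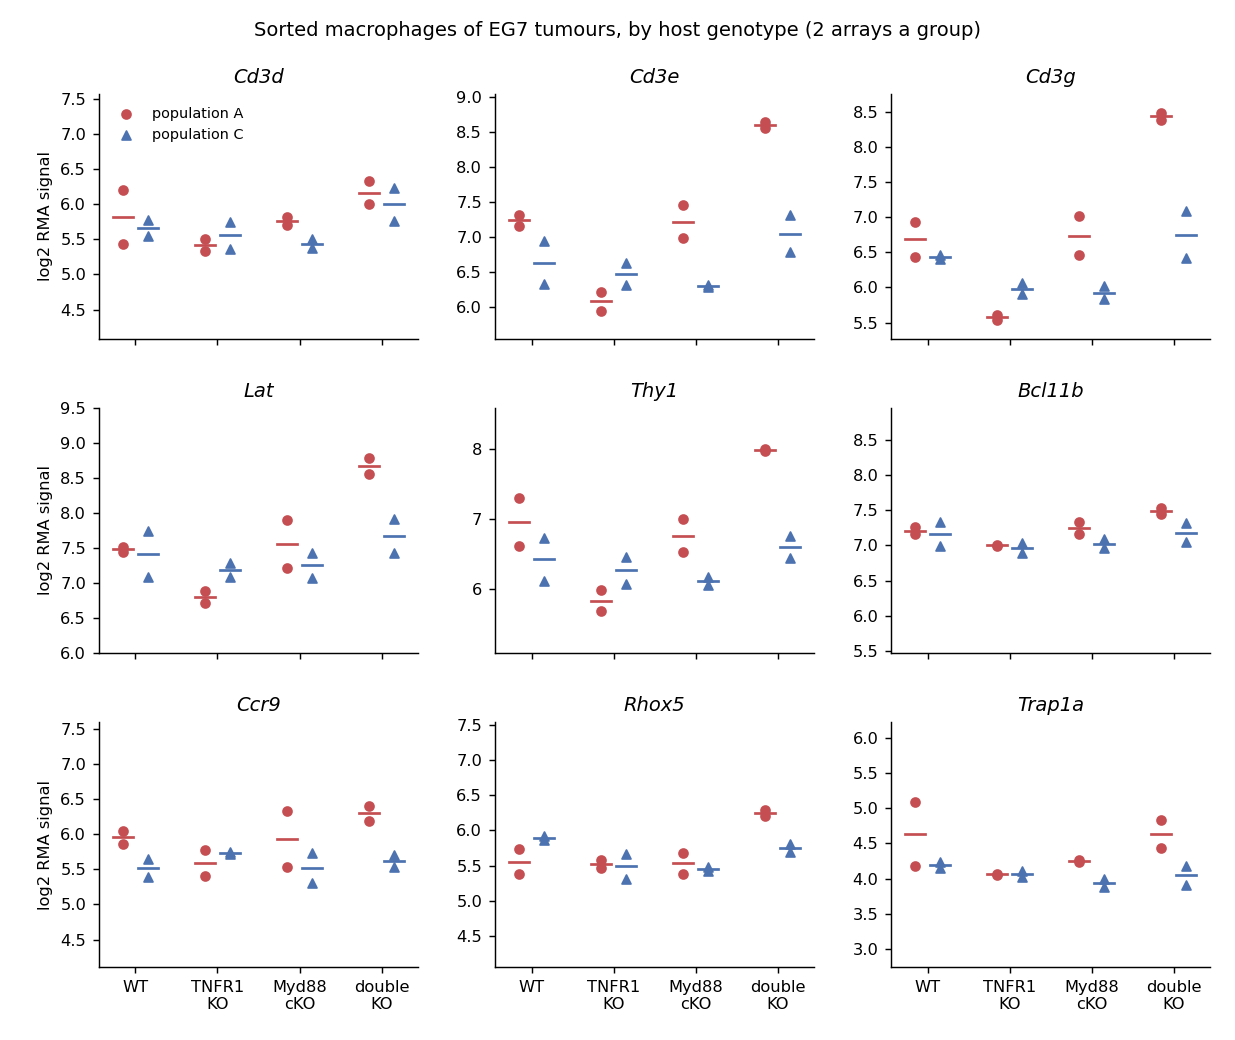
Log2 RMA signal (vertical axis, each panel spanning the same 3.5 units) of each gene in the sorted arrays, by host genotype (horizontal axis). Red circles are population A and blue triangles population C, 2 arrays a group, with bars at the group means. Cd3e, Cd3g, Lat and Thy1 are highest in A of doubleKO hosts and lowest in A of TNFR1KO hosts; Trap1a is highest in a single A array of WT hosts at 5.09.

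In population A, 5 of 8 genes tested were higher in doubleKO than in WT hosts, where 4.33% of 16524 genes were called higher (limma over the 8 sorted groups, adjusted p under 0.05). Cd3g rose by 1.75 ± 0.23 (SE, 3.38-fold, adjusted p = 0.00705) and Cd3e by 1.35 ± 0.23 (2.56-fold, adjusted p = 0.0134). Lat rose by 1.19 ± 0.25 (2.27-fold, adjusted p = 0.024), Thy1 by 1.02 ± 0.26 (2.03-fold, adjusted p = 0.0363) and Rhox5 by 0.69 ± 0.17 (1.61-fold, adjusted p = 0.0336). The other 3 genes did not pass: Cd3d at 0.34 ± 0.24 (95% interval -0.16 to 0.85), Ccr9 at 0.34 ± 0.24 (interval -0.16 to 0.85) and Bcl11b at 0.29 ± 0.16 (interval -0.05 to 0.62). Trap1a, fitted with no low-value filter, had a difference of 0.00 ± 0.23 (interval -0.49 to 0.49, adjusted p = 1). That value turns on the WT arrays: without A_WT replicate 1 it was 0.46 ± 0.18 (adjusted p = 0.114) and without A_WT replicate 2 it was -0.46 ± 0.18 (adjusted p = 0.123). The median of the 8 genes was 0.86 against -0.01 over all genes tested.

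These calls rest on 2 arrays a group. Without A_doubleKO replicate 1, 0 of the 8 genes were called, with adjusted p of 0.108 for Cd3e and 0.0676 for Cd3g. Cd3e and Cd3g were called in the 15 other fits that each left out 1 sorted array, with differences of 1.27 to 1.43 and 1.51 to 2.00 over all 16. Lat and Thy1 were lost under quantile normalization (adjusted p of 0.0828 and 0.0621) and without either A_doubleKO array (adjusted p up to 0.138 and 0.206), and Thy1 also without A_WT replicate 2 or either C_Myd88cKO array. Rhox5 was lost without either A_doubleKO array, without A_WT replicate 1 and without either C_Myd88cKO array (adjusted p up to 0.221).

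Between TNFR1KO and WT hosts the same CD3 chains went the other way in A. Cd3e fell by 1.16 ± 0.23 (2.23-fold, adjusted p = 0.0431) and Cd3g fell by 1.11 ± 0.23 (2.16-fold, adjusted p = 0.0491), so 2 of 8 genes were called lower where 0.339% of all genes were. Thy1, at -1.12 ± 0.26 (adjusted p = 0.0544), and Lat, at -0.68 ± 0.25 (adjusted p = 0.175), did not pass. Rhox5 was at -0.04 ± 0.17 (95% interval -0.39 to 0.32), and Trap1a, with no filter, at -0.57 ± 0.23 (adjusted p = 0.211), which became -0.12 (adjusted p = 0.788) without A_WT replicate 1 and -1.03 (adjusted p = 0.00536) without A_WT replicate 2. Both calls lie near the threshold. Cd3e was lost without C_TNFR1KO, C_Myd88cKO or C_doubleKO replicate 1 or 2, A_WT replicate 1 or A_TNFR1KO replicate 2 (adjusted p up to 0.439). Cd3g was lost in 12 of 16 fits that left out an array (adjusted p up to 0.397), all but those without A_Myd88cKO or A_doubleKO arrays, and also with no filter or with the mean of probe sets (adjusted p up to 0.0524).

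Between Myd88cKO and WT hosts no difference passed in A. By limma 0 of 8 passed, where 3.18% of all genes did, and 0 of the 8 had an unadjusted p under 0.05. Cd3g was at 0.06 ± 0.23 (95% interval -0.44 to 0.55), Cd3e at -0.02 ± 0.23 (interval -0.52 to 0.48) and Rhox5 at -0.03 ± 0.17 (interval -0.38 to 0.33).

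**Figure D2:**
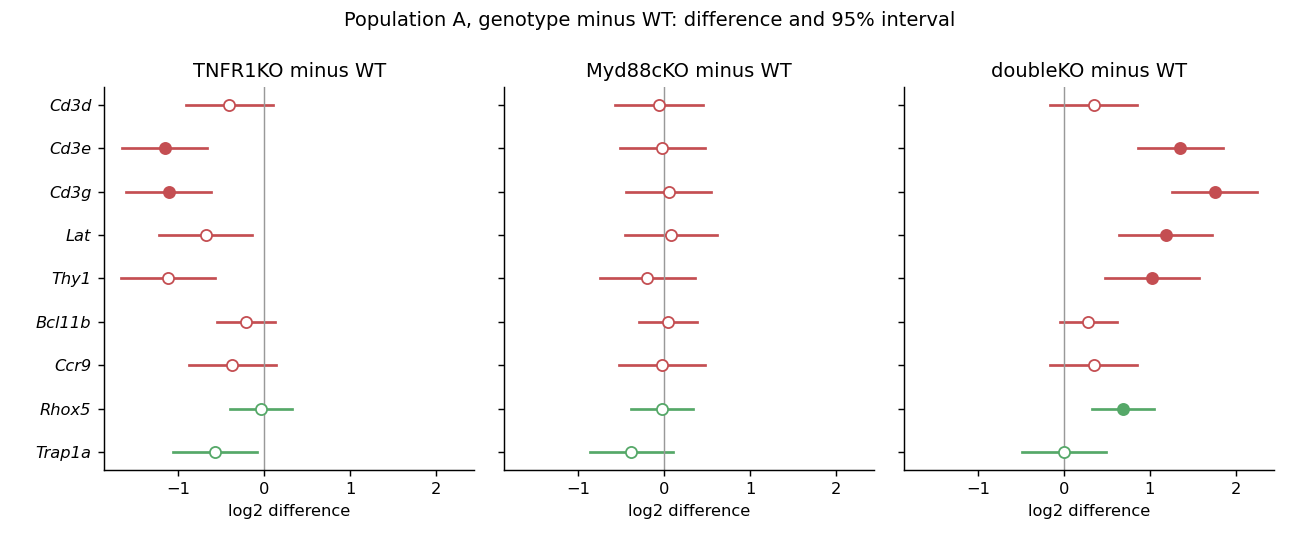
Log2 difference from WT (horizontal axis) of each gene in population A for 3 host genotypes, with 95% intervals as lines. Red marks T-lineage genes and green EG7-line genes; filled points passed an adjusted p of 0.05, and Trap1a is from the fit with no low-value filter. In doubleKO hosts Cd3g (1.75), Cd3e (1.35), Lat (1.19), Thy1 (1.02) and Rhox5 (0.69) are filled on the right, while Trap1a is at 0.00.

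Comparisons among the deletions of A were added after the levels had been seen. DoubleKO hosts exceeded TNFR1KO hosts in 4 of 8 genes, where 1.28% of all genes were higher: Cd3g by 2.87 ± 0.23 (7.29-fold, adjusted p = 0.000105), Cd3e by 2.52 ± 0.23, Thy1 by 2.15 ± 0.26 and Lat by 1.86 ± 0.25. These 4 calls held without any array in turn. Against Myd88cKO hosts 2 of 8 were higher, where 0.0242% of all genes were: Cd3g by 1.70 ± 0.23 (adjusted p = 0.02) and Cd3e by 1.38 ± 0.23 (adjusted p = 0.0456). The difference exceeded the sum of the 2 single deletions in 3 of 8 genes, where 0.0726% of all genes did: Cd3g by 2.81 ± 0.33 (adjusted p = 0.00492), Cd3e by 2.53 ± 0.33 (adjusted p = 0.011) and Thy1 by 2.34 ± 0.36 (adjusted p = 0.0298). For Rhox5 this departure was 0.75 ± 0.24 (adjusted p = 0.306). All these contrasts use the same A_doubleKO arrays, and a low TNFR1KO group adds to the departure. Against Myd88cKO hosts, Cd3g lost the call without either A_doubleKO array or A_Myd88cKO replicate 1 (adjusted p up to 0.125). Cd3e lost it without any array of A_doubleKO, A_Myd88cKO, C_Myd88cKO or C_TNFR1KO (adjusted p up to 0.267), with no filter and under quantile normalization. The departure of Cd3e was lost without A_WT replicate 1, A_Myd88cKO replicate 1 or A_doubleKO replicate 2. That of Thy1 was kept in 5 of 16 such fits, those without an array of C_WT, A_WT replicate 2, A_Myd88cKO replicate 2 or A_doubleKO replicate 1.

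In population C no gene passed a test between a deletion and WT. By limma 0 of 8 genes passed in TNFR1KO hosts (0.0726% of all genes did), 0 of 8 in Myd88cKO hosts (0.0121%) and 0 of 8 in doubleKO hosts (0.309%). In the same order, 1, 2 and 0 of the 8 had an unadjusted p under 0.05, as did 781, 636 and 1019 of all 16524 genes. In doubleKO hosts Cd3e was at 0.41 ± 0.23 (95% interval -0.09 to 0.91), Cd3g at 0.31 ± 0.23 (interval -0.18 to 0.81) and Rhox5 at -0.15 ± 0.17 (interval -0.50 to 0.21). Rhox5 had unadjusted p of 0.03 and 0.0189 in TNFR1KO and Myd88cKO hosts, with differences of -0.41 and -0.45.

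The genotype effect itself was not shown to differ between A and C. For the doubleKO effect, 0 of 8 genes passed the interaction test by limma, where 0.0363% of all genes did. An unadjusted p under 0.05 was held by 5 of the 8, and by 1772 of all 16524 genes tested. Cd3g had an interaction of 1.44 ± 0.33 (unadjusted p = 0.000596, adjusted p = 0.176), Cd3e 0.94 ± 0.33 (adjusted p = 0.357) and Rhox5 0.84 ± 0.24 (adjusted p = 0.268). For the TNFR1KO effect 0 of 8 passed (0% of all genes), and for the Myd88cKO effect 0 of 8 (0%). By limma, 2 of the 8 and 1533 of 16524 genes had an unadjusted p under 0.05 for the TNFR1KO effect. For the Myd88cKO effect these were 0 of the 8 and 1505 of 16524.

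Population A exceeded C in 4 of 8 genes over the mean of the 4 genotypes, where 11.1% of all genes were higher. Cd3e had a difference of 0.67 ± 0.12 (1.59-fold, adjusted p = 0.000529), Cd3g 0.58 ± 0.12 (adjusted p = 0.00146), Thy1 0.53 ± 0.13 (adjusted p = 0.00558) and Ccr9 0.35 ± 0.12 (adjusted p = 0.0375), the last lost under quantile normalization (adjusted p = 0.0643) and in 9 of 16 fits that left out an array (either array of C_TNFR1KO, replicate 1 of C_WT, C_Myd88cKO, C_doubleKO or A_TNFR1KO, or replicate 2 of A_WT, A_Myd88cKO or A_doubleKO). Trap1a, with no filter, was at 0.34 ± 0.11 (adjusted p = 0.0428), and at 0.25 ± 0.13 over the mean of the 3 genotypes other than doubleKO (adjusted p = 0.18). This call for Trap1a was kept in 4 of 16 fits that left out an array, those without either A_WT array, A_doubleKO replicate 2 or C_doubleKO replicate 2 (adjusted p up to 0.104 in the others). Rhox5 was at 0.07 ± 0.08 (95% interval -0.11 to 0.25). The mean of those 3 genotypes (without doubleKO hosts, below) was an alternative chosen after the data were seen. It came from the same fit of all 16 sorted arrays, so the doubleKO arrays still entered the spread. By limma 1 of 8 genes was called (9.52% of all genes were higher): Cd3e at 0.38 ± 0.13 (adjusted p = 0.0471). That call was lost with no filter (adjusted p = 0.053). It was kept only in the 6 of 16 fits without an array of C_doubleKO or replicate 2 of C_WT, C_TNFR1KO or A_WT, or replicate 1 of A_Myd88cKO. Cd3g and Thy1 were at 0.22 ± 0.13 and 0.25 ± 0.15 without doubleKO hosts.

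Within a genotype, doubleKO hosts gave calls and the other 3 gave 0. There 4 of 8 genes were higher in A, where 1.74% of all genes were: Cd3g by 1.69 ± 0.23 (3.22-fold, adjusted p = 0.000889), Cd3e by 1.55 ± 0.23 (2.93-fold, adjusted p = 0.00155), Thy1 by 1.38 ± 0.26 (adjusted p = 0.00628) and Lat by 1.0 ± 0.25 (adjusted p = 0.0338). Cd3e and Cd3g kept the call without any sorted array in turn. Lat lost it without either array of A_doubleKO, C_doubleKO or C_TNFR1KO, and Thy1 without A_doubleKO or C_doubleKO replicate 1 (adjusted p up to 0.325 and 0.0807). By limma 0 of 8 passed in WT hosts (13.5% of all genes did), 0 of 8 in TNFR1KO hosts (12.6%) and 0 of 8 in Myd88cKO hosts (1.97%). In the same order, 1, 0 and 3 of the 8 had an unadjusted p under 0.05, as did 4903, 4320 and 2720 of all 16524 genes. Some estimates in the other hosts fell little short of the threshold. In Myd88cKO hosts Cd3e was at 0.915 ± 0.23 (adjusted p = 0.0588 by limma) and Cd3g at 0.815 ± 0.23 (adjusted p = 0.0886). In WT hosts Cd3e was at 0.605 ± 0.23 (adjusted p = 0.0979) and Cd3g at 0.245 ± 0.23. In TNFR1KO hosts the estimates for Cd3e and Cd3g were -0.39 ± 0.23 and -0.41 ± 0.23, opposite in sign to the other 3 genotypes.

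Array by array in the sorted cells, Rhox5 rose with the T-lineage genes in A of doubleKO hosts. In A of TNFR1KO hosts it did not fall with them. Its A arrays of WT hosts, at 5.38 and 5.73, already lay near the array medians of 5.31 to 5.50. Whether Rhox5 could have fallen further was not tested, so this does not part it from the T-lineage genes. Trap1a fell from the WT mean in TNFR1KO hosts and kept that mean in doubleKO hosts. But the WT mean of Trap1a rests on 2 unlike arrays, at 5.09 and 4.18. Relative to the WT mean of A, the 7 T-lineage genes averaged 0.84 and 0.96 higher in the doubleKO arrays of A, and the 3 CD3 chains 1.07 and 1.24. Rhox5 was 0.73 and 0.65 higher in the same arrays, and Trap1a 0.20 higher in replicate 1 and 0.20 lower in replicate 2. In the TNFR1KO arrays of A the T-lineage mean was at -0.71 and -0.74, Rhox5 at -0.10 and 0.03, and Trap1a at -0.58 and -0.57. The Trap1a signals there, 4.05 and 4.07, lay close to the lower WT array, so this fall rests on the higher one. The A array of a WT host with the highest Trap1a (0.46 above its group mean) had a T-lineage mean of only 0.07 and Rhox5 at -0.18.

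In the bead-enriched arrays of the Myd88 experiment the departures of the T-lineage mean, Rhox5 and Trap1a had the same sign in 7 of 10 arrays. WT replicate 4 had a T-lineage mean of 0.36, Rhox5 of 0.43 and Trap1a of 0.47 above the WT mean, and Myd88-/- replicate 4 had -0.36, -0.37 and -0.93. In both arrays Trap1a departed further than the T-lineage mean. In the sorted arrays Trap1a lay at the 16.4th to 40.4th percentile, near the low end of the chip, and its WT reference in A is the mean of 5.09 and 4.18. Both doubleKO arrays (4.83 and 4.44) exceed the lower of these, and both TNFR1KO arrays (4.05 and 4.07) lie close under it. The departures of Trap1a in A therefore do not show whether it followed the T-lineage genes.

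**Figure D3:**
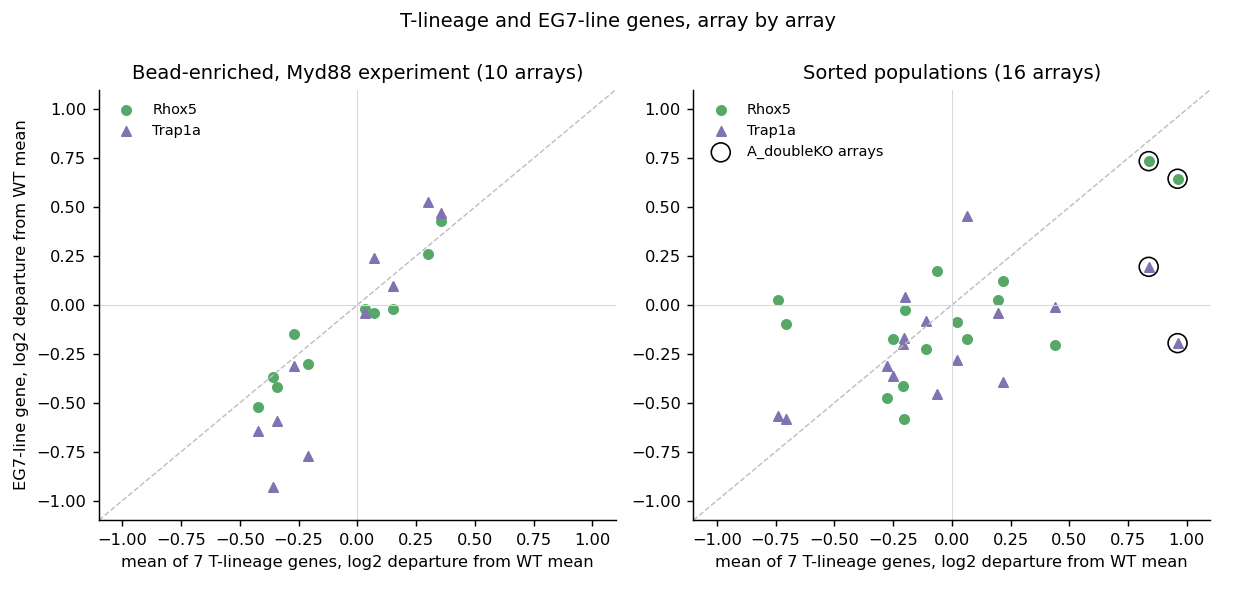
Departure of Rhox5 (green circles) and Trap1a (purple triangles) from the WT mean (vertical axis, log2) against the mean departure of the 7 T-lineage genes (horizontal axis, log2), a pair of points for each array. The left panel holds 10 bead-enriched arrays of the Myd88 experiment and the right panel 16 sorted arrays, each against WT of its own population; the dashed line marks equal departures and black rings the doubleKO arrays of population A. The points with the largest departures lie near or beyond the line on the left, while on the right the ringed Rhox5 points (0.73 and 0.65) lie under it and the ringed Trap1a points lie at 0.20 and -0.20.

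Outside the named genes, those with the pattern most like Cd3e over the 16 sorted arrays were Trav9d-3 (r = 0.950), Esm1 (r = 0.904), Asns (r = 0.904), Erbb4 (r = 0.896) and Cd96 (r = 0.894). Trav9d-3 is a variable segment of the T cell receptor alpha chain; it has near-identical copies, which its probe set may not separate. Its level was 9.91 to 10.16 in A of doubleKO hosts, 8.87 to 9.37 in WT, 8.11 to 8.91 in Myd88cKO and 6.53 to 6.65 in TNFR1KO, and 7.38 to 8.66 in population C. Cd96 is a receptor of T and natural killer cells, Asns is asparagine synthetase, and Esm1 is an endothelial proteoglycan. Among the named genes, r with Cd3e was 0.967 for Cd3g, 0.954 for Thy1, 0.941 for Lat, 0.884 for Bcl11b, 0.798 for Ccr9, 0.761 for Cd3d, 0.675 for Rhox5 and 0.653 for Trap1a. These values are a description: the doubleKO and TNFR1KO arrays of A lie at opposite ends and carry much of them. For Trap1a the nearest genes were Slc19a2 (r = 0.912), Zap70 (r = 0.898), Prss42 (r = 0.893), Osmr (r = 0.880) and Xrcc5 (r = 0.869), and the single A array of a WT host with the highest Trap1a weighs on them.

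The wider T cell lists gave few calls in A of doubleKO hosts, and 4.33% of all genes were called higher there. Of 16 tested genes of the T cell receptor and its proximal signalling, 1 was higher in A of doubleKO hosts than of WT hosts (Cd28, the costimulatory receptor, by 0.54 ± 0.14, adjusted p = 0.0405), with a median of 0.09 against -0.01 over all genes, so its count was near that share. Of 9 T-lineage transcription factors, 3 were higher: Myb by 1.27 ± 0.20 (adjusted p = 0.0109), Ikzf3 by 1.56 ± 0.37 and Tcf12 by 0.81 ± 0.21, though none of these is limited to T cells. Of 15 tested genes of mature T subsets and effectors, 1 was higher, Gzmb by 1.27 ± 0.29 (adjusted p = 0.0301). Of 7 immature thymocyte genes 1 was higher, Cd24a by 1.66 ± 0.41 (adjusted p = 0.0357), which many immature blood cells carry.

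In A of TNFR1KO hosts, where Cd3e and Cd3g fell, the T cell lists gave 0 calls except for Cd24a, which was higher than in WT. Of all genes, 0.654% were called there in either direction. In A of Myd88cKO hosts 1 of the 7 immature thymocyte genes was also higher than in WT, where 3.18% of all genes were called. By limma 0 of 16 receptor and signalling genes were called (5 at an unadjusted p under 0.05, median -0.14 against -0.04 over all genes), 0 of 9 transcription factors (3 at an unadjusted p under 0.05) and 0 of 15 mature T genes (4 at an unadjusted p under 0.05). Over all genes, 3096 of 16524 had an unadjusted p under 0.05 in this comparison. In the Myd88 experiment 1 of 13 receptor and signalling genes was called, where 1.44% of all genes were: Lcp2, an adaptor downstream of Zap70 that myeloid cells share, at -0.53 ± 0.08 (adjusted p = 0.00302).

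Between populations, over the mean of the 4 genotypes, 7 of 16 receptor and signalling genes were higher in A and 1 was lower, where 11.1% of all genes were higher and 21.3% lower. Prkcq, a protein kinase C of T cells, was higher by 2.07 ± 0.23, Lcp2 by 0.56 ± 0.10 and Cd5 by 0.28 ± 0.08, and the kinase Fyn was at -0.80 ± 0.14. Of 15 mature T genes 5 were higher and 2 lower, with Gzmb at 1.19 ± 0.14 and Cd8a at 0.51 ± 0.09 against Il7r at -2.35 ± 0.16 and Ccr7 at -2.10 ± 0.14, both also borne by dendritic cells. Of 9 transcription factors 4 were higher and 1 lower, among them Ikzf3 at 1.85 ± 0.19, Ets1 at 0.31 ± 0.08, Satb1 at 0.35 ± 0.10 and Tcf12 at -0.55 ± 0.10. Eosinophil, basophil and mast cell markers were higher in A for 9 of 10, and their part in these differences was not tested.

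A few T cell genes, chosen after their values were seen, show the range of the lists. Zap70 had 5.15 to 5.35 in A of doubleKO hosts, at the 44.1st to 49.4th percentile of the array, against 4.73 to 5.24 in A of WT hosts. Cd2 had 5.03 to 5.14, at the 40.8th to 43.8th percentile, against 4.64 to 4.90 in A of WT hosts. Pdcd1, a receptor of activated T cells that had 6.73 to 7.15 in EG7 tumours and 3.80 to 4.42 in neuroblastoma by bead enrichment, had 6.49 to 6.69 in A of doubleKO hosts and 5.73 to 6.14 in WT. Cd8b1, a chain of the CD8 coreceptor, had 6.42 to 6.94 in A of doubleKO hosts, 6.49 to 6.84 in WT and 5.45 to 5.87 in TNFR1KO. Of the 11 tested genes of the cancer-germline and Rhox cluster list besides Rhox5, 0 were called by limma in A of doubleKO hosts, with 2 at an unadjusted p under 0.05 (4095 of all 16524 genes) and a median of -0.08. Rhox6 and Xlr3a, with the smallest p of them, were at -0.49 ± 0.17 (adjusted p = 0.104) and -0.68 ± 0.25 (adjusted p = 0.109).

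Markers of other cells moved beside these genes, and their part in the results was not tested. In A of doubleKO hosts 10 of 18 cell cycle genes were higher than in WT, against 4.33% of all genes, among them Mcm5 by 1.19 ± 0.21, Rrm2 by 1.17 ± 0.20, Ccnb2 by 0.94 ± 0.18 and Mcm2 by 0.88 ± 0.17. Their summed signal was 11.44 to 11.46 on the log2 scale, against 10.74 to 10.87 in A of WT hosts and 10.41 to 10.56 in A of TNFR1KO hosts. In population C of doubleKO hosts, where no T-lineage gene was called, that sum was 11.33 to 11.51. The sum of eosinophil, basophil and mast cell markers was 11.94 to 13.19 in A of doubleKO hosts, 12.46 to 13.17 in TNFR1KO, 12.14 to 12.79 in Myd88cKO and 10.40 to 11.39 in WT, so the arrays of all 3 deletions lay above those of WT. Of 10 such markers tested, 3 were higher in doubleKO than in WT hosts, against the same 4.33%: Ccr3 at 2.27 ± 0.42, Alox15 at 1.75 ± 0.44 and Il5ra at 1.54 ± 0.35.

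Fibroblast and endothelial markers fell beside the CD3 chains in TNFR1KO hosts. Of 10 tested in A, 5 were lower than in WT, against 0.339% of all genes, among them Dcn at -1.66 ± 0.31, Col1a1 at -1.35 ± 0.27, Cdh5 at -1.18 ± 0.18 and Col1a2 at -0.98 ± 0.19. The summed signal was 9.48 to 9.57 there, against 9.99 to 10.60 in WT and 10.46 to 10.63 in doubleKO hosts, where 0 of 10 were called by limma and 3 had an unadjusted p under 0.05. Between doubleKO and WT hosts in A, 4095 of all 16524 genes had such an unadjusted p. At most 2 of the 11 measured markers were at or under the 40th percentile of the array in A of WT hosts, and fibroblasts also carry Thy1. Of 7 natural killer markers 1 was lower in A of doubleKO hosts than of WT hosts (Klrb1c at -0.88 ± 0.20), where 1.42% of all genes were, and the summed signals overlapped, at 8.41 to 8.82 against 8.69 to 8.96. Of the other lists, set against 4.33% of all genes higher, 1 of 6 group 2 innate lymphoid genes was higher there (Il13 at 2.45 ± 0.54), 1 of 14 macrophage genes was higher (Mrc1 at 1.51 ± 0.38), and of 8 neutrophil genes Retnlg was at 1.58 ± 0.35 and Ltf at -0.87 ± 0.18. By limma 0 of 6 B lymphocyte genes and 0 of 5 neuroblastoma genes were called, with 1 of each list at an unadjusted p under 0.05.

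**Figure D4:**
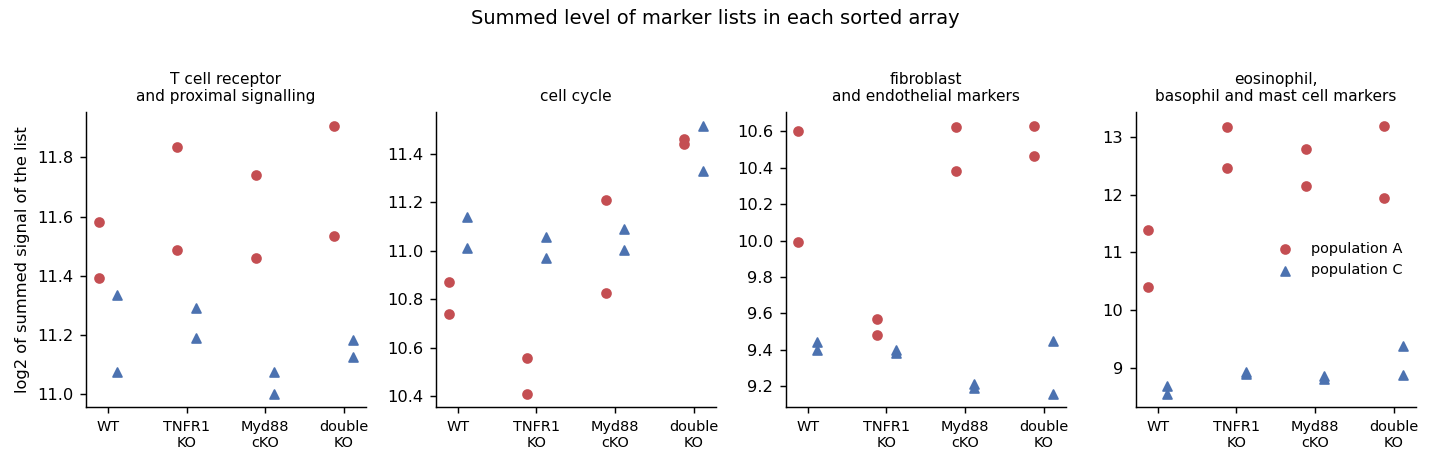
Log2 of the summed signal of 4 marker lists (vertical axis, a scale for each panel) in each sorted array by host genotype (horizontal axis); red circles are population A and blue triangles population C, 2 arrays a group. The cell cycle sum is highest in doubleKO hosts in both populations (11.33 to 11.51), the fibroblast and endothelial sum of A is lowest in TNFR1KO hosts (9.48 to 9.57), and the eosinophil, basophil and mast cell sum of A is lowest in WT hosts (10.40 to 11.39).

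Macrophage and monocyte genes were well represented in every sorted group, and more so in C. The summed signal of 15 macrophage and monocyte genes was 14.16 to 14.82 in A and 14.88 to 15.12 in C, and at most 1 of the 15 lay at or under the 40th percentile of an array. Over the mean of the 4 genotypes 9 of 14 such genes were lower in A than in C and 1 was higher, with a median of -0.71. C1qa was at -2.61 ± 0.12, Mrc1 at -2.53 ± 0.19 and C1qb at -2.21 ± 0.17; Ly6c2, at 3.21 ± 0.18, belongs to the Ly6C gate. The eosinophil, basophil and mast cell sum given above reached 13.19 in A.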

How the data were processed

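Tumour macrophage RNA of 32 samples was measured on 2 chips from 100 ng of total RNA an array. The deposited values are log2 signals; the submitters' processing notes name RMA and Affymetrix Expression Console 1.1, and the arrays that shared a normalization run are not named there. On HT_MG-430_PM 28898 of 45141 probe sets had 1 gene symbol (551 several, 15692 none), and on Mouse Gene 2.0 ST 23521 of 41345 (1814 and 16010). Symbols were updated through 28689 and 23328 matched gene IDs of GRCm38.p6. Each gene took its brightest single-symbol probe set.

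Genes above the 40th percentile of an array in as many arrays as the smallest group entered limma 3.58.1 (R 4.3.3), with two-sided tests called at a Benjamini-Hochberg adjusted p of 0.05 across the genes that entered. The sorted fit had 8 groups and 8 residual degrees of freedom. Scipy 1.17.1 gave permutation p-values. The number of arrays limits the precision. Tested on simulated data with 200 changed genes, the doubleKO against WT contrast in A (16524 genes) recovered 0% of changes of 0.5, 69% of 1 and 87% of 1.5. The Myd88 experiment (11915 genes) recovered 49.5%, 95% and 100%.

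The genes, lists and tests were chosen with earlier results of these data known. All 9 measured genes are named. From every other list, up to 4 called genes of smallest adjusted p were named per contrast described, or the 2 of smallest p; Gzma, Cd2, Ctla4, Pdcd1, Cd8b1 and the levels of Zap70 and Gzmb were chosen after their values were seen. The 5 genes of highest Pearson correlation with Cd3e and Trap1a were taken among tested genes, unnamed models left out. Alternatives were no filter, quantile normalization, the mean of probe sets, a trended robust prior, a replicate block and leaving out each array.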

Additional observations from a re-analysis of the deposited data

How the results depend on the processing

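Of the 5 calls in population A of doubleKO against WT hosts, 3 were left under quantile normalization. The 2 calls of TNFR1KO against WT hosts became 1 with no filter on low values and 1 with the mean of probe sets. A against C in WT hosts, with 0 calls, gave 1 under quantile normalization. DoubleKO against Myd88cKO hosts in A, with 2 calls, gave 1 with no filter and 1 under quantile normalization. The mean of A against C without doubleKO hosts, with 1 call, gave 0 with no filter. Leaving out each array in turn gave 0 to 5 calls for doubleKO against WT in A, 0 to 3 for TNFR1KO against WT in A, 2 to 4 for A against C in doubleKO hosts, 3 to 4 for A against C over 4 genotypes, 0 to 2 without doubleKO hosts, 0 to 1 in WT and in Myd88cKO hosts, 4 to 5 for doubleKO against TNFR1KO, 0 to 2 for doubleKO against Myd88cKO, 1 to 5 for the departure from the sum and 0 to 1 for the doubleKO interaction. The median neuroblastoma difference of -5.20 ranged from -5.55 to -4.77. The mean of the CD3 chains alone, in place of the 7 T-lineage genes, moved the mean departure from -0.16 to -0.24 in C of TNFR1KO hosts, from -0.24 to -0.36 in C of Myd88cKO hosts, from 0.23 to 0.35 in C of doubleKO hosts, from -0.72 to -0.89 in A of TNFR1KO hosts and from 0.90 to 1.15 in A of doubleKO hosts. The cause of these changes was not tested, and no called difference turned its sign in any alternative run. A group left with 1 array was assumed to vary like the other groups. In simulated data with 200 changed genes, the doubleKO against WT contrast in A recovered mainly changes of 1 or larger. Smaller changes were called in the real data of that contrast, such as Rhox5 at 0.69. Ccr9 was called at 0.35 ± 0.12 in A against C over 4 genotypes, a contrast of more arrays that was not simulated. Replicate numbers are shared between groups, but same-numbered arrays did not deviate together (r from -0.251 to 0.226 in the Myd88 experiment and from -0.196 to 0.237 between A and C, and from -0.17 to 0.259 between WT and the deletions of 1 population), so the numbers were not taken to pair arrays; with the replicate block the counts were 0 for the Myd88 experiment and 2 in place of 3 for the departure from the sum, where Thy1 had an adjusted p of 0.0527. Quantile normalization moved the share of higher calls over all genes from 75.3% to 60.6% for doubleKO against WT in A, from 77.7% to 58.5% for Myd88cKO against WT in A, from 56.9% to 35.8% for doubleKO against WT in C, and from 100% to 85.2% for the departure from the sum. For A against C it moved from 26.2% to 40.1% in WT, 19.6% to 38.2% in TNFR1KO, 52.5% to 68.5% in Myd88cKO and 31.9% to 46% in doubleKO hosts, and from 32.2% to 43.2% without doubleKO hosts. Genes called went from 108 to 722 for TNFR1KO against WT in A and from 12 to 27 for the departure, with shifts of the median of all genes within 0.05.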
